A study of Mus musculus with 2 samples.

Results

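*Slc38a4*, *Slc38a2* and *Slc38a1* are 3 amino acid transporter genes that lie next to each other on mouse chromosome 15, all on the (−) strand. They were chosen by name and position, not by their levels, although earlier results of these data were known. They are 3 of the 1718 annotated genes that lie wholly inside the parts of the genome covered by the deposited RNA signal. The level of each exon and intron, the signal on the opposite strand and the signal past the ends of the genes were measured in 2 libraries. One library came from JXO mouse embryo fibroblasts (MEFs), with a JF1 mother and a TgOG2 father, and the other from OXJ MEFs, with a TgOG2 mother and a JF1 father. JF1 is an inbred strain of *M. musculus molossinus*, and OG2 is a transgenic line of largely domesticus background that is homozygous for GOF18ΔPE-EGFP, a green fluorescent reporter driven by the *Pou5f1* promoter, so the cells of both crosses carry the transgene on the OG2 chromosome set. Each line was grown from the carcass of 1 female embryo of 13.5 dpc after the head and the internal organs had been removed, and RNA was taken at passage 2 or 3. Since there is 1 library per cross, no difference between JXO and OXJ has a replicate check, no p-value was computed, and the cross cannot be told apart from the embryo, the culture or the library.

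The 3 genes encode sodium-coupled neutral amino acid transporters of the plasma membrane, which carry small neutral amino acids into the cell together with sodium ions. SNAT1, the product of *Slc38a1*, and SNAT2, the product of *Slc38a2*, take up glutamine and alanine, and *Slc38a2* is known as a gene that cells induce when amino acids run short or the medium turns hypertonic. SNAT4, the product of *Slc38a4*, is best known from liver and placenta, and the mouse gene is imprinted, with expression from the paternal allele in many tissues. The tracks hold read depth without the bases that differ between JF1 and OG2, so the parental allele was not analysed here. The study reported *Slc38a4* as paternally expressed in these same MEFs, which would make its RNA mainly OG2 in JXO and mainly JF1 in OXJ. For this gene the cross therefore cannot be told apart from the strain of the expressed allele either.

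RNA depleted of ribosomal RNA was sequenced from both ends with the strand marked. A level below is the mean read depth of the bases in question after scaling to 50000000 aligned reads (scaled depth), so that a single read counts as 0.652 in JXO and as 0.579 in OXJ. The 95% interval of a level is an exact Poisson interval, with 200 read bases taken as 1 read pair, and reflects counting error alone. The tracks hold 5837225 reads of JXO and 5785447 reads of OXJ, 7.61% and 6.70% of the aligned reads, in 618 stretches. Within JXO, 562 of 568 protein-coding genes (98.9%) were higher on their annotated strand than on the opposite strand, and within OXJ 560 (98.6%). This held when the direction named forward was read as (−) strand RNA. Of 18 fibroblast markers 3 were measured, with levels of 583 in JXO and 388 in OXJ for *Col1a2*, 22.9 and 25.9 for *Dcn*, and 18.9 and 15.5 for *Lum*. The hepatocyte, skeletal muscle, blood, endothelial, epithelial and neural markers had 0 genes inside the stretches, so the presence of such cells was not tested.

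*Slc38a4* lies at 96825254 to 96886387 of chromosome 15 (mm9, 61.1 kb) and has 3 annotated transcripts that begin with different first exons and then share the same next exon, exon 4, which holds the start of the coding sequence. Nearly all reads over these first exons were in the most distal one. The sequences around the 3 starts are shown because the data tell the starts apart, with 70 bases before each start in lower case and the first 30 bases of the first exon (20, the whole exon, for Slc38a4-202) in capitals, read on the (−) strand of NCBIM37 (mm9).
Slc38a4-201, chr15:96886358-96886457: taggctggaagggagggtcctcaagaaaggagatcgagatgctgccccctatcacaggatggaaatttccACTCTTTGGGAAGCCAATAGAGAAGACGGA
Slc38a4-203, chr15:96861613-96861712: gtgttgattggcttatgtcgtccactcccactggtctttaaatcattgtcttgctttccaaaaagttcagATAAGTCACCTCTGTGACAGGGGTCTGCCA
Slc38a4-202, chr15:96850734-96850823: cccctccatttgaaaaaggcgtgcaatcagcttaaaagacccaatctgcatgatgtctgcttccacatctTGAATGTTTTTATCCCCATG
Exon 1, the first exon of Slc38a4-201 (102 bases), had a level of 175 in JXO (147 to 207) and 78.2 in OXJ (60.8 to 98.97). Exon 2, the first exon of Slc38a4-203, had 1.14 in JXO and no read in OXJ, and exon 3, the first exon of Slc38a4-202, had no read in either library. The value of exon 2 is below the level of 3 reads over every base, 1.96 in JXO and 1.74 in OXJ, and exon 3 is so short that its counting interval still reached up to 24.04 in JXO and 21.4 in OXJ. Signal from the 2 inner starts was therefore not detectable at this depth.

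The splice sites of *Slc38a4* show the same one-sidedness at single bases. Below, the last 10 exon bases before each donor and the first 10 exon bases after the shared acceptor are in capitals and the intron bases in lower case.
Donor of exon 1, chr15:96886276-96886295: AGAAAGGCGGgtgagttaaa
Donor of exon 2, chr15:96861555-96861574: AATAATTAAGgtacagttcg
Donor of exon 3, chr15:96850724-96850743: TATCCCCATGgcaagttgca
Acceptor of exon 4, chr15:96850283-96850302: ctgtggacagGAAAGGGCTG
At the last base of exon 1 there were 616 reads in JXO and 305 in OXJ, and at the intron base next to it 2 in JXO and 0 in OXJ. The last bases of exon 2 and exon 3 had 0 reads in either library. The intron begins with gt after exons 1 and 2, whereas it begins with gc after exon 3. Exon 4 itself had a level of 455 in JXO and 241 in OXJ. By mean depth exon 1 thus reached 38.5% of the exon it is joined to in JXO and 32.5% in OXJ. The last base of exon 1 was deeper than its mean in both libraries, so these percentages are not the share of transcripts with exon 1.

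**Figure D1:**
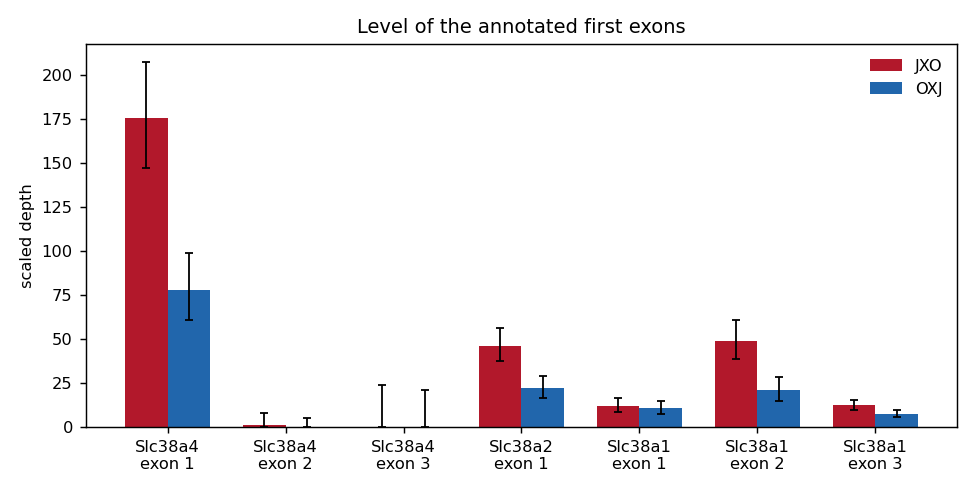
Level (mean scaled depth, linear axis from 0) of each annotated first exon in JXO (red) and OXJ (blue), with 95% counting intervals as error bars. Exon 1 of *Slc38a4* has a level of 175 in JXO and 78.2 in OXJ, while exons 2 and 3 are at or near 0, and exon 2 of *Slc38a1* is the highest of its 3 first exons in both libraries.

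By mean depth, first exons lay below the next exon in the other genes too. *Slc38a2*, at 96517825 to 96530129 (12.3 kb, 1 transcript), had 46.4 in JXO (37.9 to 56.2) and 22.3 in OXJ (16.9 to 29.01) over exon 1, equal to 35.3% and 30.03% of the level of exon 2. *Slc38a1*, at 96401849 to 96473344 (71.5 kb, 3 transcripts), has 3 alternative first exons within 2 kb and all 3 were covered. Exon 2 was the highest of them, with 49.2 in JXO (39.1 to 61.1) and 21.1 in OXJ (15.1 to 28.8). Exon 1 had 12.3 in JXO and 11.0 in OXJ, and exon 3 had 12.6 in JXO and 7.69 in OXJ, and the intervals of exons 1 and 3 overlapped each other in each library. The starts of *Slc38a2* and of the most deeply read first exon of *Slc38a1* are shown for comparison with those of *Slc38a4*, with the first exon again in capitals.
Slc38a2-201, chr15:96530100-96530199: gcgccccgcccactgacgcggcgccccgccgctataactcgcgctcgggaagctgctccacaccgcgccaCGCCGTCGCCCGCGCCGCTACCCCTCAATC
Slc38a1-202, chr15:96472745-96472844: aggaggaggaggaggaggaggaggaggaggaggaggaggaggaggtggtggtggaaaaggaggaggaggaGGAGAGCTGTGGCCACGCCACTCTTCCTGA
In the window of 250 bases before to 50 after the start, *Slc38a2* held 40 CG pairs and 72.3% G or C, more CG pairs than 95.5% of the windows of 22375 protein-coding genes (median 11). Slc38a1-202 held 17 CG pairs. The covered start of *Slc38a4*, Slc38a4-201, held 5 CG pairs and 53.0% G or C, and the starts without detectable signal held 5 in Slc38a4-203 and 4 in Slc38a4-202, so CG content in this window did not separate the covered start of *Slc38a4* from the others.

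By mean depth *Slc38a4* had the highest exon level of the 3 genes, clearly so in JXO and by little in OXJ. Over all 4030 exonic bases its mean depth came to 339 in JXO (333 to 346) and 141 in OXJ (137 to 145). *Slc38a2* followed with 216 in JXO (212 to 221) and 136 in OXJ (132 to 139), and *Slc38a1* had 82.2 in JXO (79.99 to 84.4) and 40.7 in OXJ (39.3 to 42.2). *Slc38a4* was 1.57 times *Slc38a2* in JXO and 1.04 times in OXJ (1.002 to 1.08). In OXJ the order of these genes turned with the measure, since *Slc38a4* had 130 and *Slc38a2* 135 by median depth, and 107 and 116 by the mean of log2 values. With itself counted, *Slc38a4* was at or above 93.4% of the measured genes with a level of at least 1 in JXO and 91.1% in OXJ. The same shares were 90.8% and 90.5% for *Slc38a2* and 79.5% and 75.2% for *Slc38a1*. All levels are per base of RNA, and in cultures of bulk cells more RNA per cell and more cells with the RNA cannot be told apart.

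The distance between the genes depended on which bases were read. Long, mostly non-coding last exons make up much of each transcript. Without the last exon, however, *Slc38a1* had 81.7 in JXO and 43.5 in OXJ, near its values over all exons. What sets the distance was not tested. Over the coding sequence alone the levels were 451 in JXO and 208 in OXJ for *Slc38a4*, 186 and 122 for *Slc38a2*, and 148 and 77.6 for *Slc38a1*. By coding sequence *Slc38a4* was 2.42 times *Slc38a2* in JXO and 1.70 times in OXJ, and 3.05 and 2.68 times *Slc38a1*. *Slc38a2* was the exception in shape, since its last exon (251 in JXO and 157 in OXJ) was above its coding sequence. The last exons of *Slc38a4* (281 and 99.9) and *Slc38a1* (82.4 and 39.2) were below theirs.

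**Figure D2:**
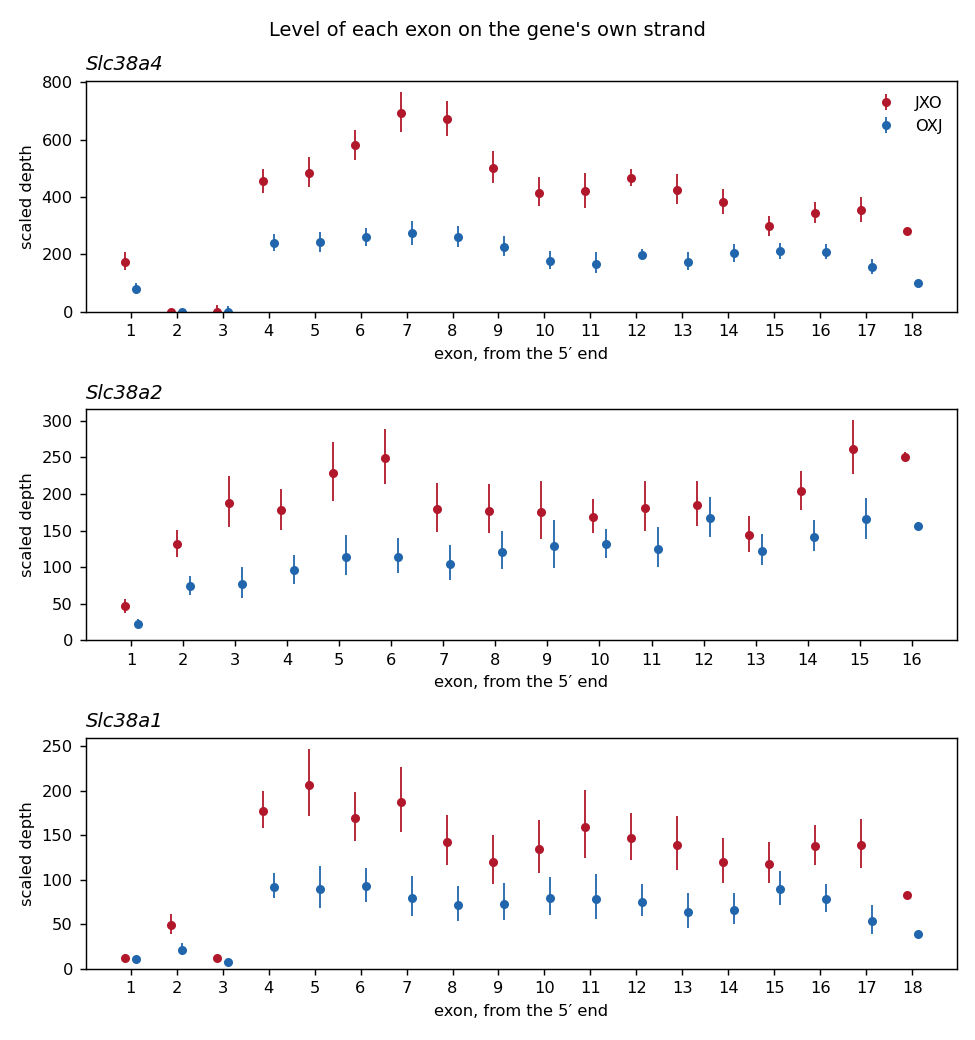
Level of each exon (mean scaled depth, linear axis from 0) of *Slc38a4*, *Slc38a2* and *Slc38a1* in order from the 5′ end, in JXO (red) and OXJ (blue), with 95% counting intervals as bars. Exons 4 to 17 of *Slc38a4* lie between 297 and 693 in JXO and between 156 and 273 in OXJ, and the points of JXO are above those of OXJ in every exon with reads in both libraries.

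Along *Slc38a4* the 14 internal exons shared by all transcripts ran from 297 in exon 15 to 693 in exon 7 in JXO, with a median of 440, and from 156 in exon 17 to 273 in exon 7 in OXJ, with a median of 211. Exon 7 was thus the highest in both libraries, and the highest and lowest of the 14 were 2.33 times apart in JXO and 1.76 times in OXJ. In *Slc38a1* the 14 shared internal exons ran from 117 in exon 15 to 207 in exon 5 in JXO and from 53.4 in exon 17 to 92.8 in exon 6 in OXJ. In *Slc38a2* exons 2 to 15 ran from 131 in exon 2 to 262 in exon 15 in JXO and from 74.4 in exon 2 to 167 in exon 12 in OXJ. Among these exons *Slc38a2* was thus lowest at its 5′ end, where the other genes were not.

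The genes share an exon plan that the measurement did not use. Each has 15 coding exons, 10 of them with exactly the same number of coding bases in all 3 genes, and the other 5 differ by multiples of 3. Over the 885 bases of the 10 equal exons, *Slc38a4* and *Slc38a2* were identical at 69.4% of the bases, *Slc38a4* and *Slc38a1* at 64.5%, and *Slc38a2* and *Slc38a1* at 60.2%. The shortest of the equal exons, the coding exon 8 of 59 bases, is printed on the (−) strand with the 38 bases that all 3 genes hold in common in capitals.
Slc38a4 exon 11, chr15:96840378-96840436: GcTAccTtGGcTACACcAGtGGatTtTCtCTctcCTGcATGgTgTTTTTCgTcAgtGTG
Slc38a2 exon 9, chr15:96523712-96523770: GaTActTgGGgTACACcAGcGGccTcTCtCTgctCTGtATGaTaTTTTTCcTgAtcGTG
Slc38a1 exon 11, chr15:96417523-96417581: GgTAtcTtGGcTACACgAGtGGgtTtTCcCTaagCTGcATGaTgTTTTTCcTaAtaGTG
The longest run of bases found in exons of any 2 of the genes, on either strand, was 32 bases between *Slc38a4* and *Slc38a1*, 20 between *Slc38a4* and *Slc38a2* and 17 between *Slc38a2* and *Slc38a1*, all shorter than a read of 100 bases. This exon was read at 420 in JXO and 168 in OXJ for *Slc38a4*, at 175 and 129 for *Slc38a2*, and 159 and 78.1 for *Slc38a1*.

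All 3 genes had a higher ratio of JXO over OXJ than the median measured gene, and *Slc38a4* differed most. Measured genes are those inside the deposited stretches, so this median need not be that of all genes in the libraries. As deposited, the median measured gene was itself higher in JXO by 0.47 on the log2 scale, so ratios of JXO over OXJ are given relative to that gene. *Slc38a4* had a log2 ratio of 0.80 (95% counting interval 0.75 to 0.85), *Slc38a1* 0.55 (0.48 to 0.61) and *Slc38a2* 0.21 (0.16 to 0.26), and the intervals of the 3 genes did not overlap. A ratio of 1 or more was reached by 0 of the 3 genes, beside 2.63% of 761 measured genes with a mean level of at least 1, and a ratio of −1 or less by 0 of them, beside 4.86%. As deposited the ratios were 1.26 for *Slc38a4*, 1.01 for *Slc38a1* and 0.67 for *Slc38a2*, so 2 of the 3 reached 1 beside 8.8% of all, and 0 of them reached −1 beside 1.97%. A ratio above that of the median gene, which 49.9% of the genes have, was found in 3 of the 3. With each gene itself counted, *Slc38a4* was at or above 96.1% of the 761 genes, *Slc38a1* at or above 91.5% and *Slc38a2* at or above 69.6%. How far these values would move between embryos of 1 cross was not measured.

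**Figure D3:**
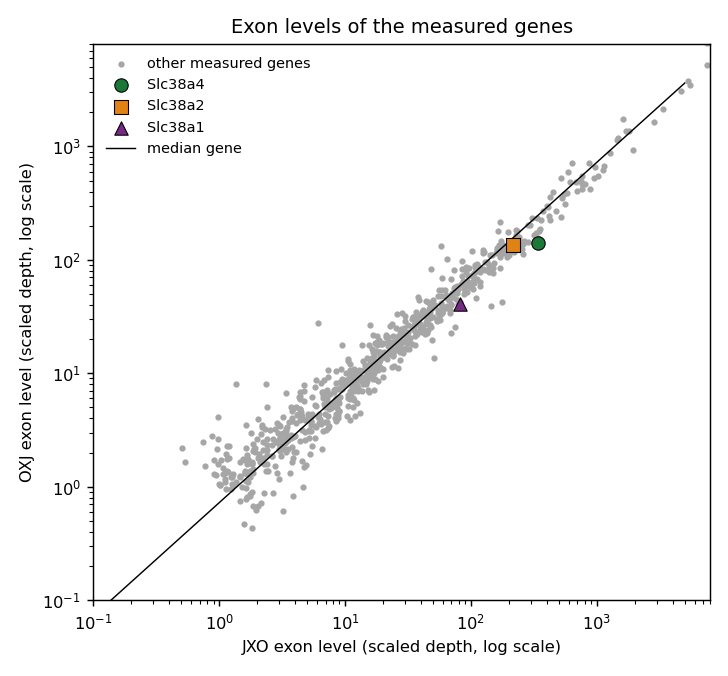
Exon level in JXO against exon level in OXJ (mean scaled depth, both axes log scale) of the measured genes with a mean level of at least 1 (grey) and of *Slc38a4* (green circle), *Slc38a2* (orange square) and *Slc38a1* (purple triangle); the line marks the median gene, 0.47 higher in JXO on the log2 scale. The 3 genes lie on the JXO side of the line, *Slc38a4* the farthest with a log2 ratio of 0.80 relative to it.

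The ratio was not the same along the genes. In *Slc38a4* the 16 exons with reads in both libraries were all above the median gene, but by as little as 0.02 in exon 15 (297 in JXO and 212 in OXJ) and by as much as 0.89 in exon 8 (671 and 261) among the internal exons. The last exon of 2269 bases was the only one to reach 1, with a ratio of 1.03 (0.95 to 1.10) from levels of 281 in JXO and 99.9 in OXJ. Without that exon the ratio of *Slc38a4* was 0.62 (0.56 to 0.69). The first 322 bases of the last exon, shared by all transcripts, had 434 in JXO and 137 in OXJ, and the 1947 bases after them 256 and 93.8.

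In *Slc38a2* the point value of the ratio was highest near the 5′ end. It was below the median gene in exons 9, 10, 12 and 13 and above it again in the last exons. The counting intervals of exons 9, 10, 12 and 13 reach on either side of 0, as do those of exons 14 and 15. That of the last exon does not (0.16 to 0.28). Exon 3 was highest, with 0.82 (187 in JXO and 76.8 in OXJ), and exon 12 lowest, with −0.32 (185 and 167), and 12 of its 16 exons were above the median gene. From exon 12 on the ratios were −0.32, −0.23, 0.06, 0.20 and, in the last exon of 2835 bases, 0.22. Of the internal exons with coding bases, the first 5 had 0.53 (0.36 to 0.70) and the last 5 had −0.04 (−0.18 to 0.11), a difference of −0.56. In *Slc38a4* the first 5 had 0.68 (0.58 to 0.79) and the last 5 had 0.40 (0.28 to 0.52), a difference of −0.28. A comparison over all internal exons, coding or not, was added after the values of the 3 genes had been seen. It covered 152 protein-coding genes with at least 12 exons and a level of at least 10. There the difference between the first 5 and last 5 had a median of 0.02, with quartiles of −0.17 and 0.23. By this measure it was −0.56 in *Slc38a2*, with 4 of the genes lower. It was −0.16 in *Slc38a4*, with 39 lower, and −0.10 in *Slc38a1*, with 45 lower. In *Slc38a1* 16 of 18 exons were above the median gene, from −0.07 in exon 15 to 0.91 in exon 17 among the internal exons. Of its internal exons with coding bases, the first 5 had 0.55 and the last 5 had 0.40.

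When the exons are lined up by their order in the coding sequence, the point values of all 3 genes are low at coding exon 12. There the ratio was 0.02 in *Slc38a4*, −0.23 in *Slc38a2* and −0.07 in *Slc38a1*, the lowest coding exon in *Slc38a4* and *Slc38a1* and the second lowest in *Slc38a2*. Coding exon 12 has 125 bases in *Slc38a4* and *Slc38a2* and 119 in *Slc38a1*. Its levels were 297 in JXO and 212 in OXJ for *Slc38a4*, 144 and 122 for *Slc38a2*, and 117 and 89.2 for *Slc38a1*. The counting intervals of the ratio at this exon reach on either side of 0 in all 3 genes, and the pattern was noticed after the values were seen. In *Slc38a1* the interval (−0.49 to 0.35) overlaps those of all other internal coding exons but exon 17. A low point shared by the genes is therefore not resolved.

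**Figure D4:**
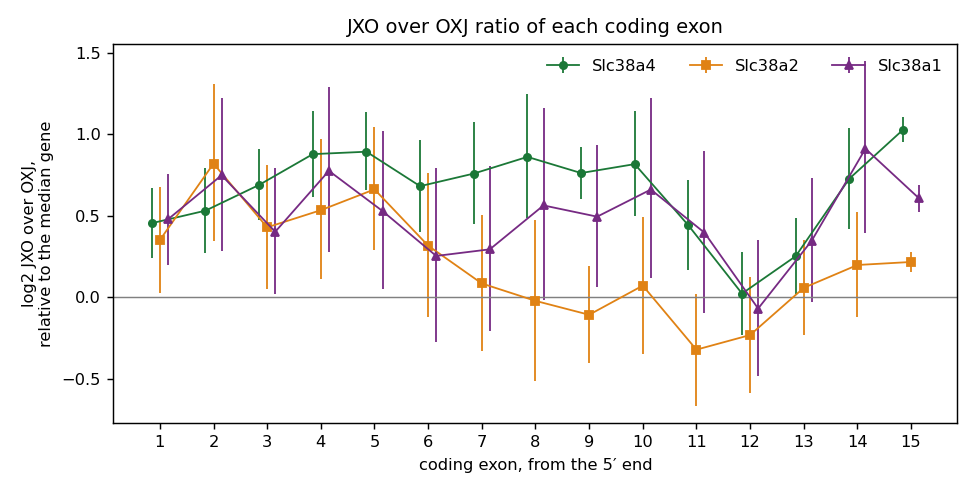
Log2 ratio of JXO over OXJ relative to the median gene (0, grey line) for coding exons 1 to 15 of *Slc38a4* (green), *Slc38a2* (orange) and *Slc38a1* (purple), with 95% counting intervals as bars. The point values of *Slc38a2* go below 0 from coding exon 8 to 12 apart from coding exon 10, with bars that reach above 0. All 3 genes are near or below 0 at coding exon 12.

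Introns had little signal in *Slc38a4* and *Slc38a1* and more in *Slc38a2*. The introns of *Slc38a4*, 57104 bases, had a level of 0.645 in JXO (0.572 to 0.725) and 0.425 in OXJ (0.370 to 0.487), equal to 0.190% and 0.301% of the exon level. Among 520 protein-coding genes with introns the median was 2.74% in JXO and 2.90% in OXJ. With *Slc38a4* itself counted, only 3.27% of them in JXO and 4.23% in OXJ had the same or a lower share. *Slc38a1* had 0.850 in JXO and 0.562 in OXJ over introns, 1.03% and 1.38% of its exons. *Slc38a2* had 12.1 in JXO (11.2 to 13.0) and 7.54 in OXJ (6.89 to 8.23), or 5.59% and 5.55% of the exon level. With itself counted, this share was at or above that of 72.3% of the genes in JXO and 71.3% in OXJ. Although the exons of *Slc38a4* were deeper, its introns were at 0.0533 times the level of the *Slc38a2* introns in JXO and 0.0565 times in OXJ.

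**Figure D5:**
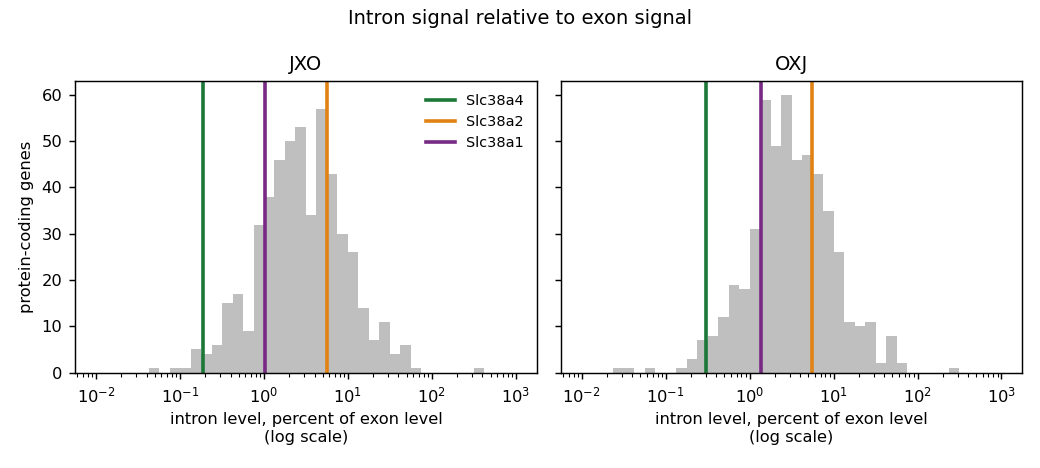
Intron level as percent of exon level (log scale) over 520 protein-coding genes (grey bars, number of genes with intron reads) in JXO and OXJ, with *Slc38a4* (green), *Slc38a2* (orange) and *Slc38a1* (purple) as vertical lines. *Slc38a4* lies in the low tail at 0.190% in JXO and 0.301% in OXJ, and *Slc38a2* above the median at 5.59% and 5.55%.

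Within *Slc38a2* the intron signal was uneven. Intron 4 (2412 bases) had 19.1 in JXO (17.2 to 21.2) and 11.0 in OXJ (9.66 to 12.6), and intron 7 (1374 bases) 16.1 and 9.63, whereas intron 9 (105 bases) had 2.29 and 1.71. Introns 4 and 7, the 2 longest, were thus among the highest, and 13 of 15 introns were covered over at least 90% of their bases in each library. In *Slc38a4* the highest was intron 11 (808 bases), with 3.53 in JXO and 1.81 in OXJ, and 1 of 17 introns was covered over at least 90%. In *Slc38a1* it was intron 10 (1777 bases), with 2.70 in JXO and 2.11 in OXJ.

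Intron ratios between the libraries lay nearer to the median gene than exon ratios in *Slc38a4* and *Slc38a1*. They were 0.13 (−0.13 to 0.40) for *Slc38a4* and 0.13 (−0.08 to 0.35) for *Slc38a1*, against 0.80 and 0.55 over exons, and 0.22 (0.05 to 0.39) for *Slc38a2*, against 0.21. For *Slc38a4* and *Slc38a1* the exon and intron intervals did not overlap, while for *Slc38a2* they did. Intron 1 of *Slc38a4*, 24643 bases between the covered start and the inner starts, had 0.386 in JXO (0.303 to 0.486) and 0.405 in OXJ (0.324 to 0.500), a ratio of −0.53 (−1.003 to −0.07). The other introns of *Slc38a4* had 0.841 and 0.441, a ratio of 0.46 (0.14 to 0.80). At these depths intron 1 amounts to less than 1 read over a base in either library.

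Intron 1 of *Slc38a2* is shown because the first intron of the human gene is known to hold an amino acid response element, a site through which ATF and C/EBP factors raise transcription when amino acids are scarce. A search of both strands for ATTGCATCA, the core of that element, gave 1 match in the 590 bases of the mouse intron, 223 bases from its start, in capitals here.
Slc38a2 intron 1, chr15:96529596-96529628: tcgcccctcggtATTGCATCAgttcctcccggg
The motif was found in the first 590 bases of 0.319% of 14125 first introns of at least that length, and in 0.170% of the 22375 start windows, none of them of the 3 genes. The first intron of *Slc38a4* held 1 match too, at base 23736 of 24643, and that of *Slc38a1* none. A match is a match of letters, and the tracks hold no measurement of factor binding. Over the 9 bases in *Slc38a2* the (−) strand was read on average 7.22 times in JXO and 21 times in OXJ, without scaling. The (+) strand was read 2.89 and 2 times there. Intron 1 as a whole had 2.84 in JXO (1.504 to 4.87) and 3.40 in OXJ (1.995 to 5.42), a ratio of −0.73 with a wide interval (−1.89 to 0.40). Its sense share came to 58.8% in JXO (35.98 to 79.1%, Clopper-Pearson) and 85.3% in OXJ (62.7 to 96.9%), the lowest sense share of the *Slc38a2* introns in each library. The antisense level there was 1.99 in JXO and 0.589 in OXJ. None of the 16 genes on a list of amino acid response and glutamine metabolism was inside the deposited stretches.

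Signal over exons was on the strand of the gene throughout. For *Slc38a4* the sense share came to 97.2% in JXO (96.9 to 97.5%) and 96.4% in OXJ (95.9 to 96.9%), beside 98.9% and 98.4% for *Slc38a2*, and 97.1% and 97.1% for *Slc38a1*. All 3 genes were at or above 90% in both libraries, as were 87.6% of the measured genes. In *Slc38a4* the antisense level was 9.73 in JXO and 5.27 in OXJ over exons and 0.0212 and 0.0216 over introns. As a share of the signal it was 2.79% in JXO and 3.59% in OXJ over exons and 3.18% and 4.83% over introns, so antisense depth was low where sense depth was low. The antisense share was highest in exon 7 in JXO (9.13%), the deepest exon, and in exon 9 in OXJ (10.1%).

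Signal reached the annotated 3′ end of each gene or fell off shortly before it. The last 30 bases of each gene are shown with the polyadenylation motif AATAAA, or ATTAAA where there is none, in capitals at its last match.
Slc38a4, chr15:96825254-96825283: ttggtatataataAATAAActtttcaaatg
Slc38a2, chr15:96517825-96517854: aactgaactaaAATAAAtacatgattaatc
Slc38a1, chr15:96401849-96401878: ttttcaaacattaaaatgtgaATTAAAgta
The marked match ended 11 bases before the annotated end in *Slc38a4*, 13 in *Slc38a2* and 3 in *Slc38a1*. A further match, not marked, ended 15 bases before the end in *Slc38a4*, where it overlaps the marked AATAAA, and in *Slc38a1*, and which of them is used was not measured. *Slc38a4* had a level of 242 in JXO and 75.5 in OXJ over the bases 200 to 100 before the end, 99.6 and 14.3 over the last 100 bases, and 1.45 and 0 over the first 100 bases past it. *Slc38a2* had 349 in JXO and 202 in OXJ, then 164 and 118, then 4.35 and 1.11 over the same steps. *Slc38a1* had 93.2 and 35.2, then 5.76 and 3.48, then 1.54 and 0. Its signal was thus still high 200 to 100 bases before the end and low over the last 100 bases.

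Past the ends there was next to no signal. The first 5 kb past *Slc38a4* had a level of 0.126 in JXO (0.0399 to 0.298) and 0.0810 in OXJ, and those past *Slc38a2* had 0.293 and 0.150 and past *Slc38a1* 0.162 and 0.0926. The first 1 kb without a sense read was the second kb past *Slc38a4* in JXO and the first in OXJ, the fourth and the second past *Slc38a2*, and the fifth in both libraries past *Slc38a1*. Before the start of *Slc38a1* the first kb held more antisense than sense signal, with an antisense level of 0.652 in JXO and 0.406 in OXJ and a sense level of 0.0143 and 0.258. The 44.5 kb between *Slc38a1* and *Slc38a2* had (−) strand reads in 3 of 44 bins of 1 kb in JXO and 2 in OXJ, and the 295 kb between *Slc38a2* and *Slc38a4* in 16 and 12 of 295 bins. On the (+) strand reads were in 2 and 4 of the 44 bins and in 22 and 23 of the 295 bins. The annotated small RNA genes *U6* and *AC109201.1*, on the (+) strand between *Slc38a1* and *Slc38a2*, had 0 reads in either library. The last exon of *Slc38a1* (5395 bases) was lowest at 3900 to 4000 bases from its start, with a level of 1.903 in JXO and 1.34 in OXJ. The median over the bins of 100 bases of that exon was 86.8 and 40.2. Signal dipped in other bins too, as in the bin that begins at 2100 bases, with 20.1 in JXO and 10.6 in OXJ.

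The 3 genes were the only measured members of the amino acid transporter list, 3 of 37 annotated genes, since transporters elsewhere lay outside the deposited stretches. Of the list of paternally expressed imprinted genes 21 had a mean level of at least 1. Of these 12 were above the median gene, beside 49.9% of all measured genes, and 0 were past a log2 ratio of 1 in either direction, beside 2.63% upward and 4.86% downward, with a median ratio of 0.11 and a range of −0.72 to 0.81. Nearest to *Slc38a4* (0.80) in ratio were *Igf2as* with 0.81, the antisense transcript of *Igf2*, the inositol phosphatase *Inpp5f* with 0.50 and the proteolipid *Nnat* with 0.42. *Igf2as* had only 10.3 in JXO and 4.18 in OXJ, and 69.8% and 58.9% of its exon signal was sense. By closeness of the pair of levels (log2 in JXO, log2 in OXJ) among 567 measured protein-coding genes, the nearest to *Slc38a4* was *Nes*, the intermediate filament nestin, with 340 in JXO and 155 in OXJ, followed by *Rab6*, *Prkrir*, *Rpl22* and *Rlim*. For *Slc38a2* they were *Morf4l1* (209 and 129), *Mark3*, *Ctsz*, *Actr1b* and *Mettl9*, and for *Slc38a1* *Noc3l* (79.0 and 41.2), *Cars*, *Racgap1*, *Sod2* and *Kdm5b*. This likeness rests on 2 libraries.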

How the data were processed

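RNA of 1 JXO and 1 OXJ MEF line was sequenced in paired reads of 100 bases with dUTP strand marking. The submitters' processing notes name CASAVA 1.9, TopHat 1.2.0 and mm9, and the study's methods allowed up to 10 loci per read. The authors deposited 4 tracks of log2(scaled depth + 1), with the depth of every base scaled to 50000000 aligned reads. Here the log2 scale was undone, and the depth divided by that of 1 read was a whole number of reads in every interval (largest relative deviation 3.61e-14).

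GENCODE M1 genes were measured if they lay wholly inside covered stretches, in which gaps of at most 50 kb were bridged. Exons are the union of all annotated transcripts, numbered from the 5′ end, and introns hold no annotated exon of that strand. Ratios are relative to the median of 761 genes with a mean level of at least 1, with a pseudocount of 0.1 over all genes. Intervals are 95% and cover counting error only, since PCR reads are not independent molecules. The calculations were tested on simulated data.

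The genes named are the 3 transporters, annotated genes within 100 kb, measured genes of the amino acid lists, the 5 protein-coding genes nearest to each by levels and the 3 paternally expressed genes nearest to *Slc38a4* in ratio. Members and lists were chosen with earlier results of these data known. Alternatives changed the scaling, the exon model, the measure of depth, the filter and the windows. Sequences are from NCBIM37, whose chromosome lengths equal those of the tracks. Figures were drawn with matplotlib 3.10.9, and values computed in Python 3.11.15 with scipy 1.17.1, pandas 2.3.3 and numpy 2.4.6.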

Additional observations from a re-analysis of the deposited data

How the results depend on the processing

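Under the alternatives 73 values stayed within the counting interval of the value reported and 59 moved beyond it. The latter include shares of covered bases, which are another quantity than the levels and sense shares they were set against. For these the count does not measure sensitivity. The ratios of JXO over OXJ ran from 0.12 to 1.26 for *Slc38a4*, 0.13 to 1.01 for *Slc38a1* and 0.15 to 0.67 for *Slc38a2*. The upper ends are ratios as deposited, where 0 is not the median gene. The low ends of *Slc38a4* and *Slc38a1* are intron values, whose counting intervals include 0. By scaling the ratios were 1.26, 1.01 and 0.67 as deposited and 1.08, 0.83 and 0.49 with equal totals (in the order *Slc38a4*, *Slc38a1*, *Slc38a2*, also below). A median over genes with a level of at least 5 gave 0.74 for *Slc38a4* and 0.15 for *Slc38a2*, and over all genes with reads 0.87, 0.62 and 0.28. The mean of log2 values gave 0.92, 0.47 and 0.26, the median depth 0.66 for *Slc38a1*, and leaving out the last exon 0.62 for *Slc38a4* and 0.44 for *Slc38a1*. Introns gave 0.13 for *Slc38a4* and 0.13 for *Slc38a1*, and 0.12 and 0.13 without the 10 bases next to exons, a setting chosen after seeing the data.

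Exon levels by the mean of log2 values were 279 in JXO and 107 in OXJ for *Slc38a4*, 192 and 116 for *Slc38a2*, and 54.1 and 28.2 for *Slc38a1*, all lower by construction. By median depth they were 318 and 130 for *Slc38a4*, 135 in OXJ for *Slc38a2* and 86.0 in JXO for *Slc38a1*. Both measures put *Slc38a2* above *Slc38a4* in OXJ, where mean depth put it below. Over the longest coding transcript the level was 348 in JXO for *Slc38a4* and 86.9 in JXO and 42.9 in OXJ for *Slc38a1*. The intron share of *Slc38a4* in JXO was 0.156% by the mean of log2 values and 0.248% without the first intron. That of *Slc38a2* was 4.71% in JXO and 5.18% in OXJ by the mean of log2 values, lower in JXO where mean depth gave 5.59% and 5.55%, and 7.68% in JXO and 7.28% in OXJ over intron bases at least 200 from exons. The sense share over introns was 96.8% in JXO and 95.2% in OXJ for *Slc38a4*, 94.8% and 97.2% for *Slc38a2*, and 98.95% and 96.2% for *Slc38a1*. As a share of covered bases, where 1 read weighs as much as many, it was 54.7% and 55.1%, 55.6% and 57.3%, and 56.4% and 58.9%. Past the end of *Slc38a2* the first 2 kb had a level of 0.701 in JXO and 0.374 in OXJ and the first 10 kb 0.146 in JXO. The share of bases covered in the first 5 kb was 7.42% in JXO and 12.6% in OXJ past *Slc38a4*, higher in OXJ where the level (0.126 and 0.0810) was higher in JXO, 17.5% and 8.66% past *Slc38a2*, and 14.5% and 11.5% past *Slc38a1*. Where construction does not give it, the cause was not tested.

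No paired analysis was possible because each cross has 1 library. Depth limits the introns and flanks of *Slc38a4* and *Slc38a1*, where levels are near or below that of 1 read, and the short exons, whose intervals are wide.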
